A study of Mus musculus with 7 samples.

Results

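Neural stem cells (NSC) made from mouse fibroblasts by forced expression of Pou5f1 (also named Oct4) together with Sox2, Klf4 and Myc, the OSKM factors, were compared with 2 pluripotent lines. The comparison takes 4 of the 7 RNA-seq libraries of the study, and each of the 4 is a group of its own with 1 library. The NSC libraries were OSKM NSC positive for the Nanog-Tomato label and OSKM NSC negative for it. Both carried Rosa26-TdTomato and Col1a-OSKM on a B6/129 background, were subcloned by hand and were grown without fibroblast feeders. In the reporter system, Nanog-CreER turns on TdTomato in cells that express Nanog while 4OHT is present, and doxycycline drives OSKM. The pluripotent libraries were induced pluripotent stem cells (iPSC) of strain A12 (Mbd3 flox/-) and embryonic stem cells (ESC), line v6.5, which were grown on mouse embryonic fibroblast (MEF) feeders. The description given with the iPSC reads "ESCs with MEF feeders" followed by question marks, so their feeder status is not certain. All 4 are cultured cells, and strain, genotype and feeders differ between the sides and cannot be told apart from cell type. Levels in embryonic brain NSC (strain BDF2) and in MEF (strain A12, Mbd3 flox/-) are given beside some results.

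Gene levels are the authors' RPKM values (reads scaled to exon length in kilobases and to library size), averaged over the exons of each gene by exon length. Genes with 2 RPKM or more in at least 1 of the 4 libraries were tested, and the ratio in each of the 4 NSC-to-pluripotent pairs was log2 of the levels with 1 RPKM added. A gene was called only where all 4 pairs passed 4-fold in the same direction, and members of gene lists were counted at 2-fold in all 4 pairs. Over all genes tested 13.2% were higher and 11.6% lower at 2-fold, and each list count is to be read beside these shares. Such folds understate the change of genes near 1 RPKM. No group has a replicate, so no value has a replicate error and no difference has a test. Pairs of values are in the order Tomato-positive and Tomato-negative for the NSC, and iPSC and ESC for the pluripotent lines.

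Depth, read from the steps of the values, was 19 M and 42 M reads in the NSC and 58 M and 41 M reads in the pluripotent lines. The labelled identities were checked against 5 defining markers of each kind. The NSC markers Nes, Fabp7, Olig2, Sox1 and Slc1a3 stood at 8.02 to 8761 RPKM in the NSC and at 0.0409 to 6.51 RPKM in the pluripotent lines. The naive pluripotency markers Nanog, Esrrb, Klf2, Zfp42 and Tfcp2l1 stood at 0 to 5.27 RPKM in the NSC and at 51.6 to 772 RPKM in the pluripotent lines. On both lists the sides did not overlap. Of the fibroblast markers, Col3a1, a fibrillar collagen gene, had 810.2 and 43.7 RPKM in the NSC, against 26.9 and 1477 RPKM in the pluripotent lines. The summed level of 30 fibroblast and feeder genes was 4978 and 1378 RPKM in the NSC, against 933 and 7785 RPKM in the pluripotent lines and 56758 RPKM in MEF. It was therefore raised in 1 library of each side, Tomato-positive NSC and ESC, and no fibroblast gene passed 2-fold in all 4 pairs. Its part in other results was not tested.

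Mouse pluripotent cells keep themselves undifferentiated with a circuit of transcription factors around Pou5f1, Sox2 and Nanog, to which the naive state adds Esrrb, Klf and other factors under Lif and Stat3 signals. Neural stem cells are kept cycling by Fgf and Egf and held undifferentiated by Notch signals, Sox factors and basic helix-loop-helix factors such as Olig2. Radial glia, the stem cells of the embryonic brain, share many genes with astrocytes, among them glutamate transporters and the lipid carrier Fabp7. The Nanog-Tomato label asks whether converted cells have passed through a Nanog-expressing state. The comparison with pluripotent lines gives the levels of pluripotency genes in the products. Whether such a level is left from an earlier state was not tested.

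Of 17493 genes tested, 832 (4.76%) were at least 4-fold higher in the NSC in all 4 pairs, and 998 (5.71%) were at least 4-fold lower. The median log2 ratio over all tested genes was 0.07. The spread between libraries of the same side was large by the same measure. Tomato-positive over Tomato-negative NSC gave 425 genes higher (2.77%) and 135 lower (0.881%) of 15323, and iPSC over ESC gave 203 higher (1.29%) and 691 lower (4.39%) of 15749. Between the sides, Tomato-positive NSC gave 11.5% of genes higher and 8.74% lower over iPSC, and 8.51% higher and 10.5% lower over ESC. Tomato-negative NSC gave 11.7% higher and 10.4% lower over iPSC, and 9.4% higher and 12.9% lower over ESC. Just inside the rule were Limch1, with 53.1 and 30.4 RPKM in NSC, against 3.65 and 6.85 RPKM in iPSC and ESC, and Gpx6, with 0 and 0.0357 RPKM in the NSC, compared with 3.14 and 20.2 RPKM in the pluripotent lines. Just outside on the higher side was Tbc1d9, with 14.1 and 14.7 RPKM in the NSC, against 1.13 and 2.77 RPKM in the pluripotent lines.

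**Figure D1:**
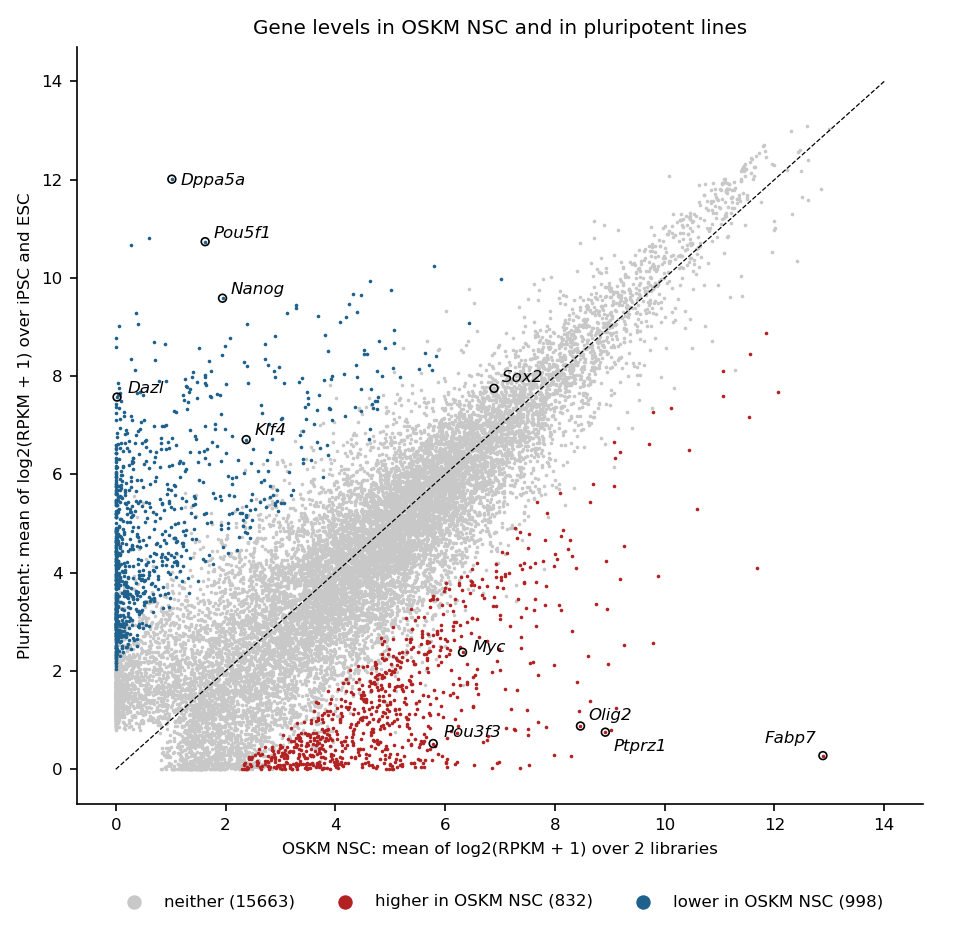
Level of each tested gene, as the mean of log2(RPKM + 1) over the 2 OSKM NSC libraries (horizontal) and over iPSC and ESC (vertical). The 832 genes called higher in NSC lie at the lower right, the 998 called lower at the upper left, and Sox2 lies near the dashed line of equal levels.

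The genes called lower in the NSC were mostly off there. Their median level was 0.213 RPKM in the NSC, against 27.2 RPKM in the pluripotent lines, and 658 of the 998 were under 1 RPKM in both NSC libraries. Their summed level was 3314 and 2219 RPKM in the NSC, against 73381 and 97991 RPKM in the pluripotent lines. The genes called higher had a median of 29.4 RPKM in the NSC, against 1.09 RPKM in the pluripotent lines, and 353 of the 832 were under 1 RPKM in both pluripotent libraries. The summed level of these genes was 73147 and 102054 RPKM in the NSC, against 4842 and 5690 RPKM in the pluripotent lines. The calls used the same values, so a gap between the sides is given by the rule. These medians and sums only describe the size of the called genes' levels. Among protein-coding genes only, those called higher spanned more of the genome, with a median of 45.7 kb. Those called lower had a median of 15.8 kb, and all tested protein-coding genes 21.4 kb. Of the lower genes 771 were protein coding and 168 were annotated pseudogenes, and of the higher genes 768 were protein coding and 28 were pseudogenes. Of all 17493 genes tested 14361 were protein coding. Pseudogenes were not counted over all tested genes, so neither count of them can be read as an excess.

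The promoters of 6 genes are printed first. Fabp7 was the highest gene of the comparison, Zfp42 had no read in the NSC, and the other 4 are germ line genes that share a short motif. Each window runs from 250 bases before to 50 bases after a RefSeq transcription start on GRCm38.p6, and is written 5′ to 3′ on the strand of the gene. Capitals mark the motif named after each sequence, found by letters alone on either strand.
Fabp7, chr10:57784673-57784972, plus strand: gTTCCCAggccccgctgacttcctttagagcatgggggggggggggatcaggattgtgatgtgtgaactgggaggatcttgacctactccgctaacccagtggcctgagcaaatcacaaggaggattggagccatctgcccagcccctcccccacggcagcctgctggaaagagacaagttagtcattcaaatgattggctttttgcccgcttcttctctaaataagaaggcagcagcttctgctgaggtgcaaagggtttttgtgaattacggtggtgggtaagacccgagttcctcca
Zfp42, chr8:43306960-43307259, minus strand: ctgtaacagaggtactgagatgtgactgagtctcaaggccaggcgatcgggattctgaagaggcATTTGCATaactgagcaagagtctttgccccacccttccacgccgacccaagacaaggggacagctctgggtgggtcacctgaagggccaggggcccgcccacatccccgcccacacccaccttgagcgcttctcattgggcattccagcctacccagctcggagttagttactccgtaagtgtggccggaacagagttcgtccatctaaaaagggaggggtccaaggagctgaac
Hormad1, chr3:95559427-95559726, plus strand: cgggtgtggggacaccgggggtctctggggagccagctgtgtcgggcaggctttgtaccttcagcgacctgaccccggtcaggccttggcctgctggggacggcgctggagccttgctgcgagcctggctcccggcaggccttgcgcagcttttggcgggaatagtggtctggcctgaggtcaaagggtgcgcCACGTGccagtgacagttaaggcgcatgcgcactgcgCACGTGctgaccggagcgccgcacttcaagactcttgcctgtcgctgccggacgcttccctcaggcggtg
Stk31, chr6:49395289-49395588, plus strand: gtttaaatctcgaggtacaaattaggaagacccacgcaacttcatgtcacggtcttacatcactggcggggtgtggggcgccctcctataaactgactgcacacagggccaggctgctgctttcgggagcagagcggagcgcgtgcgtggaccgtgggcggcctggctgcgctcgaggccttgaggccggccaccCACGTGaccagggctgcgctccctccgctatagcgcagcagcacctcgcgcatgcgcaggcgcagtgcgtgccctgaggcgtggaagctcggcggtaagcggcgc
Taf7l, chrX:134476441-134476740, minus strand: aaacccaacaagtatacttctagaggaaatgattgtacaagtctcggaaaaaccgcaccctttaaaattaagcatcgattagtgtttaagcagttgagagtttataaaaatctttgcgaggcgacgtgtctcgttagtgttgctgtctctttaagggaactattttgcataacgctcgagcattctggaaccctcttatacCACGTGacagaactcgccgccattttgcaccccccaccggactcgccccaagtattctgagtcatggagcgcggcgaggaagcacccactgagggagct
Slc25a31, chr3:40708621-40708920, plus strand: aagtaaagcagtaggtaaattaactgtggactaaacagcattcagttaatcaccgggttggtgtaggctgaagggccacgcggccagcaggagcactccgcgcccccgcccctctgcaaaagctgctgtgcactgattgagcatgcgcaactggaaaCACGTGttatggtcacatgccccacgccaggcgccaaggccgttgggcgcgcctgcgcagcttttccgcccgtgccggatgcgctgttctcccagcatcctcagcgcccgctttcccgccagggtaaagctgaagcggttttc
In Fabp7 the capitals mark TTCCCA, the reverse of the Rbpj motif TGGGAA, which 28.3% of the genes in the RefSeq promoter table held. Of 24 matched radial glia markers 6 (25%) held it, so it was not more common on that list. In Zfp42 the capitals mark ATTTGCAT, the reverse of the octamer ATGCAAAT bound by Pou factors, which 1.97% of the genes in the table held. Of 11 matched naive regulators 1 held it. In the 4 germ line genes the capitals mark CACGTG, the E-box read by Myc, Max and Mga proteins. It is the same on both strands and was held by 8.09% of the genes in the table. A match in letters is not a binding site, and the remaining motifs searched were the Sox motif ACAAAG, the E-boxes CAGCTG of Olig and proneural factors and CATATG of Olig factors, the E2f motif TCCCGC and the Nfi motif TTGGCA.

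Naive and general pluripotency factors were lower in the NSC in most members. Of 18 naive regulators tested, 15 were at least 2-fold lower in the NSC in all 4 pairs and none was higher, with a median log2 ratio of −5.47. Over all genes tested, 2316 (13.2%) were higher and 2029 (11.6%) lower at 2-fold, with a median of 0.07. Nanog is the homeobox factor whose expression, while 4OHT is present, turns on the label through CreER. It had 5.27 and 1.37 RPKM in NSC, against 772 and 765 RPKM in iPSC and ESC. The 95% exact interval of its read ratio, for counting error alone, was 0.00623 to 0.00812 for Tomato-positive NSC over iPSC. Nanog was thus lower by over 100-fold in both NSC libraries, and of these its level was higher in the labelled one. In bulk RNA a few cells with much Nanog and many cells with little cannot be told apart.

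Zfp42, which encodes the zinc finger protein Rex1, had no read in either NSC library, against 617 and 238 RPKM in the pluripotent lines. With up to 3 reads allowed by a 0 in each library, it was at least 212-fold lower in the NSC in each pair. Esrrb, an orphan nuclear receptor, had 1.19 and 3.34 RPKM in the NSC, compared with 313 and 216 RPKM in the pluripotent lines. Tfcp2l1, a grainyhead-like factor of the naive state, had 0.0909 and 0.118 RPKM in the NSC, against 135 and 172 RPKM in the pluripotent lines, and Tcl1, a coactivator of Akt kinase, had 0.112 and 0 RPKM in NSC, against 84.03 and 100.3 RPKM in iPSC and ESC. Fbxo15, a target of Pou5f1 and Sox2, had 0.403 and 0.265 RPKM in the NSC, compared with 358 and 797 RPKM in the pluripotent lines. None of these overlapped between the sides. Among the 3 members that did not pass, Stat3, which carries the Lif signal, had 86.8 and 60.7 RPKM in the NSC, against 59.9 and 57.7 RPKM in the pluripotent lines, and Gbx2, which also patterns the anterior hindbrain, had 9.62 and 21.9 RPKM in NSC, against 15.4 and 3.32 RPKM in iPSC and ESC.

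General pluripotency genes gave 19 lower and none higher of 21 tested, with a median of −4.98. Dppa5a, an RNA-binding protein gene of pluripotent cells, was the lowest of all genes, with 1.19 and 0.885 RPKM in the NSC, compared with 2867 and 5932 RPKM in the pluripotent lines. For Tomato-positive NSC over iPSC its read ratio had a 95% exact interval of 0.000227 to 0.000697, so it was over 1000-fold lower within counting error. Pou5f1 had 3.13 and 1.32 RPKM in the NSC, against 2067 and 1409.7 RPKM in the pluripotent lines. Tdh, threonine dehydrogenase, had 0 and 0.0759 RPKM in NSC, against 664 and 401 RPKM in iPSC and ESC. Tdgf1, the Nodal coreceptor Cripto, had 0.438 and 0.0248 RPKM in the NSC, compared with 343 and 309 RPKM in the pluripotent lines, and Fgf4, the ligand that prepares pluripotent cells for differentiation, had 0.0695 and 0.0314 RPKM in the NSC, against 94.3 and 205 RPKM in the pluripotent lines. Sox2, a factor shared by pluripotent and neural stem cells, did not pass, with 116 and 119.8 RPKM in NSC, against 252 and 183 RPKM in iPSC and ESC. It was lower in the NSC in all 4 pairs, by less than 2-fold in some. Reads of the OSKM transgene and of the endogenous genes are not told apart in gene levels, so the transgene's part in the NSC values of Pou5f1, Sox2, Klf4 and Myc was not tested.

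**Figure D2:**
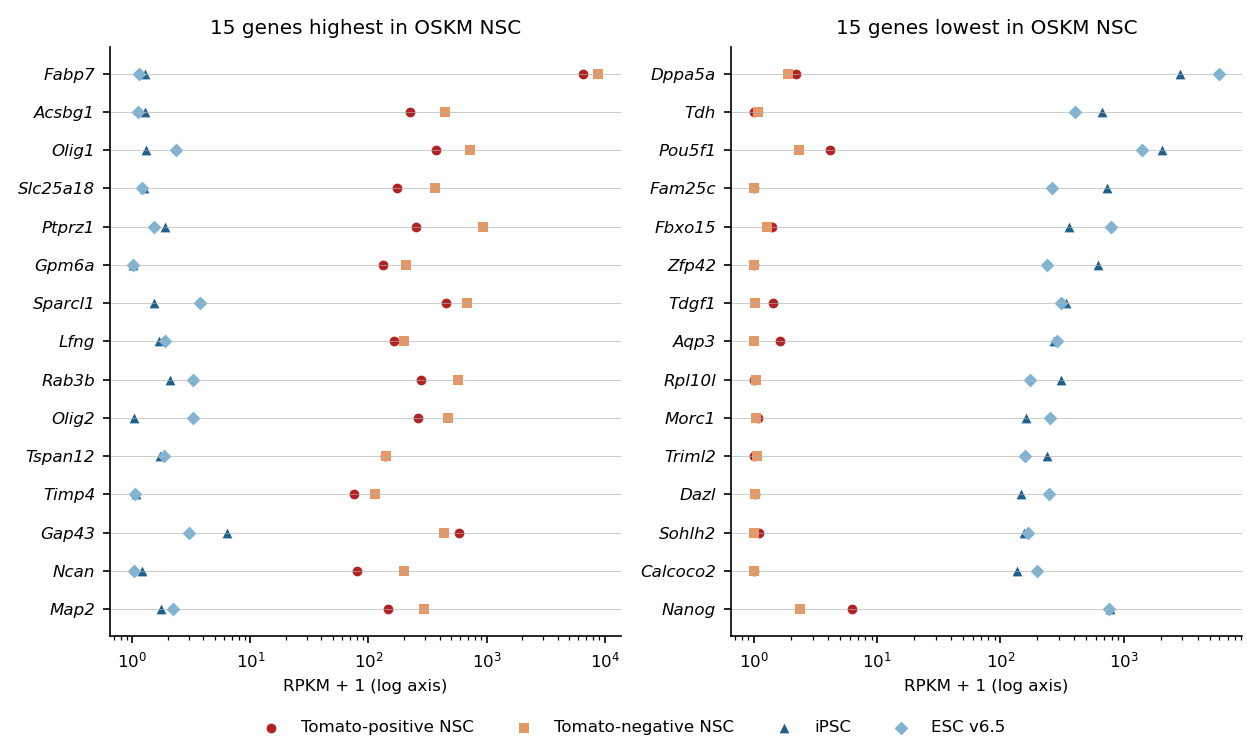
RPKM + 1 on a log axis for the 15 protein-coding genes highest and the 15 lowest in OSKM NSC, with 1 symbol per library. By the rule that picked the genes, both NSC symbols lie on the same side of both pluripotent symbols. The genes run from Fabp7 at 6511 and 8761 RPKM in NSC to Dppa5a at 1.19 and 0.885 RPKM in NSC.

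Primed epiblast and germ layer factors were mixed, with 5 lower and 1 higher of 11 tested and a median of −2.47. Nodal, the ligand that maintains the epiblast, had 0.0754 and 0.0682 RPKM in the NSC, compared with 115 and 23.4 RPKM in the pluripotent lines, and its antagonist Lefty2 had no read in the NSC, against 141 and 12.8 RPKM in the pluripotent lines. Dnmt3b, the embryonic de novo methyltransferase, had 6.62 and 2.28 RPKM in the NSC, against 24.1 and 38.2 RPKM in the pluripotent lines. The 1 higher gene was T, the mesoderm factor Brachyury, with 115 and 12.6 RPKM in NSC, against 1.27 and 0.576 RPKM in iPSC and ESC. It was highest in the labelled NSC, lower in the unlabelled NSC and lowest in the pluripotent lines. Foxa2, a factor of endoderm and floor plate, had 7.48 and 0.727 RPKM in the NSC, compared with 0.0396 and 0.0961 RPKM in the pluripotent lines and did not pass. Shh, the ligand made by the floor plate, was chosen after its values were seen, and had 38.3 and 1.34 RPKM in the NSC, against 0.0967 and 0.0343 RPKM in the pluripotent lines. Nkx6-1, a ventral neural tube factor chosen in the same way, had 14.8 and 0.125 RPKM in NSC, against 0.0267 and 0.0777 RPKM in iPSC and ESC. These 4 genes were each more than 8-fold higher in Tomato-positive than in Tomato-negative NSC by RPKM. Of 6 two-cell stage genes tested 4 were lower, each with a lower level in ESC than in iPSC, such as Zscan4d, a gene of the two-cell-like state with near-identical copies, at 0.198 and 0.358 RPKM in the NSC, compared with 38.4 and 4.25 RPKM in the pluripotent lines.

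Germ line genes were near absent from the NSC and present in both pluripotent lines. Of 19 tested, 17 were lower in the NSC and none was higher, with a median of −4.15. Dazl, an RNA-binding protein of germ cells, had 0.0179 and 0.0162 RPKM in the NSC, against 146 and 246 RPKM in the pluripotent lines. Sohlh2, a helix-loop-helix factor of early spermatogonia and oocytes, had 0.0891 and 0 RPKM in NSC, against 155 and 168 RPKM in iPSC and ESC. Rpl10l, a ribosomal protein gene of spermatocytes, had 0 and 0.0466 RPKM in the NSC, compared with 312 and 172 RPKM in the pluripotent lines. Hormad1, a meiotic chromosome axis gene, had no read in the NSC, against 41.1 and 122 RPKM in the pluripotent lines, and was at least 416-fold lower in each pair. Morc1, a repressor of transposons in male germ cells that is not on the list, was among the 15 lowest genes, with 0.0691 and 0.0391 RPKM in the NSC, against 161 and 254 RPKM in the pluripotent lines. Zcwpw1, a reader of meiotic histone marks, had 17.1 and 29.99 RPKM in NSC, against 9.89 and 34.9 RPKM in iPSC and ESC, and Dmrtb1, a regulator of meiotic entry, had 3.65 and 17.3 RPKM in the NSC, compared with 3.09 and 1.95 RPKM in the pluripotent lines. Neither of the last 2 passed.

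The E-box was counted in the germ line list because many such promoters are known targets of the Mga and E2f6 repressor complex, and all 21 members had a promoter in the RefSeq table. Of 21 members 10 (47.6%) held CACGTG in the window of 300 bases, against 2187 of 27025 genes of the table (8.09%). A further motif, the E2f letters TCCCGC, was held by 10 members (47.6%), against 5959 genes (22.1%). Of the 10 with the E-box, 8 were lower in the NSC, among them the 4 printed above, and Tdrd1 and Tdrd9 were under 2 RPKM in all 4 libraries and were not tested. Of the 11 without it, 9 were lower, so the call did not divide the list by E-box. Mga had 14.997 and 23.1 RPKM in the NSC, against 25.8 and 35.9 RPKM in the pluripotent lines, and E2f6 was higher in the NSC, with 62.2 and 63.1 RPKM in NSC, against 19.5 and 20.6 RPKM in iPSC and ESC. A link between the levels of Mga or E2f6 and those of the germ line genes was not tested.

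The X-linked Rhox homeobox genes and Xlr genes were lower in the NSC without exception, with all 30 at 2-fold, 29 of them at 4-fold, and a median of −5.26. Rhox5, expressed in the placenta and in Sertoli cells, had 3.96 and 2.64 RPKM in the NSC, compared with 270.1 and 709.6 RPKM in the pluripotent lines. Rhox13, a germ cell member, had no read in the NSC, against 68.8 and 33.3 RPKM in the pluripotent lines. Xlr3b, a lymphoid gene that is imprinted in brain, had 64.5 and 14.96 RPKM in the NSC, against 495 and 1487 RPKM in the pluripotent lines. The summed level of the 30 genes was 351 and 73.6 RPKM in the NSC, against 5224 and 12962 RPKM in the pluripotent lines. Many of these genes are near-identical copies, so their reads can be split between copies, and the 30 counts are not independent. On the X chromosome as a whole, 170 of 942 tested genes (18.0%) were called lower at 4-fold and 59 (6.26%) higher. On the Y chromosome 17 of 24 tested genes were called lower. Ddx3y, a Y-linked RNA helicase gene, had no read in the NSC, against 39.7 and 44.4 RPKM in the pluripotent lines. All 5 genes of a sex-linked check list were lower in the NSC at 2-fold. They summed to 0.0140 and 0.0468 RPKM in the NSC, against 142 and 164 RPKM in the pluripotent lines. In brain NSC the same list summed to 447 RPKM with a median of 0 RPKM. The sex of the cells cannot be told apart from the groups.

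Neural progenitor transcription factors were the opposite pole. Of 27 tested, 20 were higher in the NSC and none was lower, with a median of 3.26. Olig1 and Olig2 are neighbouring helix-loop-helix genes of ventral progenitors and the oligodendrocyte lineage. Olig1 had 372 and 729.6 RPKM in NSC, against 0.3097 and 1.34 RPKM in iPSC and ESC, and Olig2 had 262 and 474 RPKM in the NSC, compared with 0.0409 and 2.26 RPKM in the pluripotent lines. Rfx4, a factor of neural tube patterning, had 112 and 208 RPKM in the NSC, against 1.22 and 0.361 RPKM in the pluripotent lines, and Npas3, a factor of neural progenitors, had 32.8 and 50.7 RPKM in NSC, against 0.0821 and 0.108 RPKM in iPSC and ESC. In each the NSC stood above both pluripotent lines. Pax6, which patterns dorsal forebrain and spinal cord progenitors, had 6.92 and 14.7 RPKM in the NSC, compared with 0.235 and 0.101 RPKM in the pluripotent lines. Hes1, a Notch target also active in pluripotent cells, did not pass, with 38.8 and 42.9 RPKM in the NSC, against 74.5 and 52.004 RPKM in the pluripotent lines. Etv5, an Fgf target shared by both cell kinds, did not pass either, with 151 and 248 RPKM in NSC, against 170.1 and 94.9 RPKM in iPSC and ESC.

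Radial glia and neural stem cell markers held the highest gene of the comparison. Of 30 tested, 23 were higher and 1 lower, with a median of 3.76. Fabp7, the brain fatty acid binding protein, had 6511 and 8761 RPKM in the NSC, compared with 0.285 and 0.145 RPKM in the pluripotent lines. Its pluripotent level rested on 17 reads in iPSC and 7 in ESC, and the 95% exact interval of the read ratio for Tomato-positive NSC over iPSC was 14747 to 40535. Ptprz1, a receptor phosphatase of radial glia, had 249 and 935 RPKM in the NSC, against 0.8804 and 0.517 RPKM in the pluripotent lines, and Gpm6a, a membrane glycoprotein of neurites, had 131 and 205 RPKM in NSC, against 0.01604 and 0.0151 RPKM in iPSC and ESC. Nes, the intermediate filament nestin, had 225 and 451 RPKM in the NSC, compared with 5.65 and 6.42 RPKM in the pluripotent lines. Bcan, the brain proteoglycan brevican, had 65.8 and 496 RPKM in the NSC, against 0.708 and 0.528 RPKM in the pluripotent lines, with the labelled NSC lower. The 1 lower member was Cd9, a tetraspanin also abundant in pluripotent cells, chosen after its values were seen, with 347 and 169.8 RPKM in NSC, against 799 and 1363 RPKM in iPSC and ESC. Brain NSC stood at 2394 RPKM for Fabp7, 906 RPKM for Ptprz1 and 123 RPKM for Nes.

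Astrocyte genes gave 13 higher and 1 lower of 20 tested, with a median of 2.97. Acsbg1, an acyl-CoA synthetase of brain, had 222 and 444 RPKM in the NSC, compared with 0.292 and 0.128 RPKM in the pluripotent lines, the second-highest gene by its smallest pair. Slc1a3, the glutamate transporter of radial glia and astrocytes, had 232 and 650.4 RPKM in the NSC, against 2.28 and 6.51 RPKM in the pluripotent lines. Slc6a11, a GABA transporter, had 40.4 and 323 RPKM in NSC, against 0.00858 and 0.0358 RPKM in iPSC and ESC, and Mlc1, an astrocyte membrane protein, had 53.4 and 275 RPKM in the NSC, compared with 0.132 and 0.0569 RPKM in the pluripotent lines. Both were lower in the labelled NSC than in the unlabelled NSC, and stood at 792 and 404 RPKM in brain NSC. Apoe, the lipid carrier of astrocytes, was the lower gene, with 19.8 and 147 RPKM in the NSC, against 1078 and 1374 RPKM in the pluripotent lines. Among mature astrocyte markers, Gfap, an intermediate filament gene, had 1.21 and 6.45 RPKM in NSC, against 0.0684 and 0.0537 RPKM in iPSC and ESC, and Aqp4, a water channel gene, had 0.768 and 6.71 RPKM in the NSC, compared with 0 and 0 RPKM in the pluripotent lines. Aldh1l1, a folate enzyme gene, had 23.2 and 41.3 RPKM in the NSC, against 10.5 and 23.5 RPKM in the pluripotent lines and did not pass. Slc25a18, a mitochondrial glutamate carrier gene among the 15 highest, had 172 and 367 RPKM in NSC, against 0.261 and 0.2001 RPKM in iPSC and ESC.

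Oligodendrocyte lineage genes gave 7 higher and 1 lower of 14 tested, with a median of 1.65. The higher ones included Sox10, a factor of oligodendrocyte precursors and neural crest, at 5.45 and 4.55 RPKM in the NSC, compared with 0.108 and 0.108 RPKM in the pluripotent lines, and Nkx2-2 at 8.78 and 15.6 RPKM in the NSC, against 0.0792 and 0.0345 RPKM in the pluripotent lines. Neuron genes gave 12 higher and 4 lower of 22, with a median of 1.86. Map2, a dendritic microtubule protein, had 144 and 292 RPKM in NSC, against 0.739 and 1.21 RPKM in iPSC and ESC, and Gap43, a growth cone protein, had 585 and 432 RPKM in the NSC, compared with 5.38 and 2.04 RPKM in the pluripotent lines. Stmn2, a microtubule regulator of growing neurons, was lower, with 27.6 and 5.75 RPKM in the NSC, against 224 and 262 RPKM in the pluripotent lines. Tubb3, the neuronal tubulin, had 54.3 and 20.01 RPKM in NSC, against 84.1 and 6.67 RPKM in iPSC and ESC, and overlapped between the sides. Neurotransmitter receptors and transporters gave 15 higher and 2 lower of 22, with a median of 2.35, and included the adenosine receptor Adora1 at 37.2 and 47.4 RPKM in the NSC, compared with 0.0977 and 0.0803 RPKM in the pluripotent lines and the glutamate receptor Grm5 at 23.1 and 79.5 RPKM in the NSC, against 0.04896 and 0.00955 RPKM in the pluripotent lines. Of 21 potassium and sodium transport genes 9 were higher and 1 lower, led by the channel Kcnd3 at 24.1 and 91.9 RPKM in NSC, against 0.0944 and 0.0822 RPKM in iPSC and ESC. The sodium pump subunit Atp1b1 was the lower one, with 18.7 and 41.5 RPKM in the NSC, compared with 197 and 334 RPKM in the pluripotent lines.

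**Figure D3:**
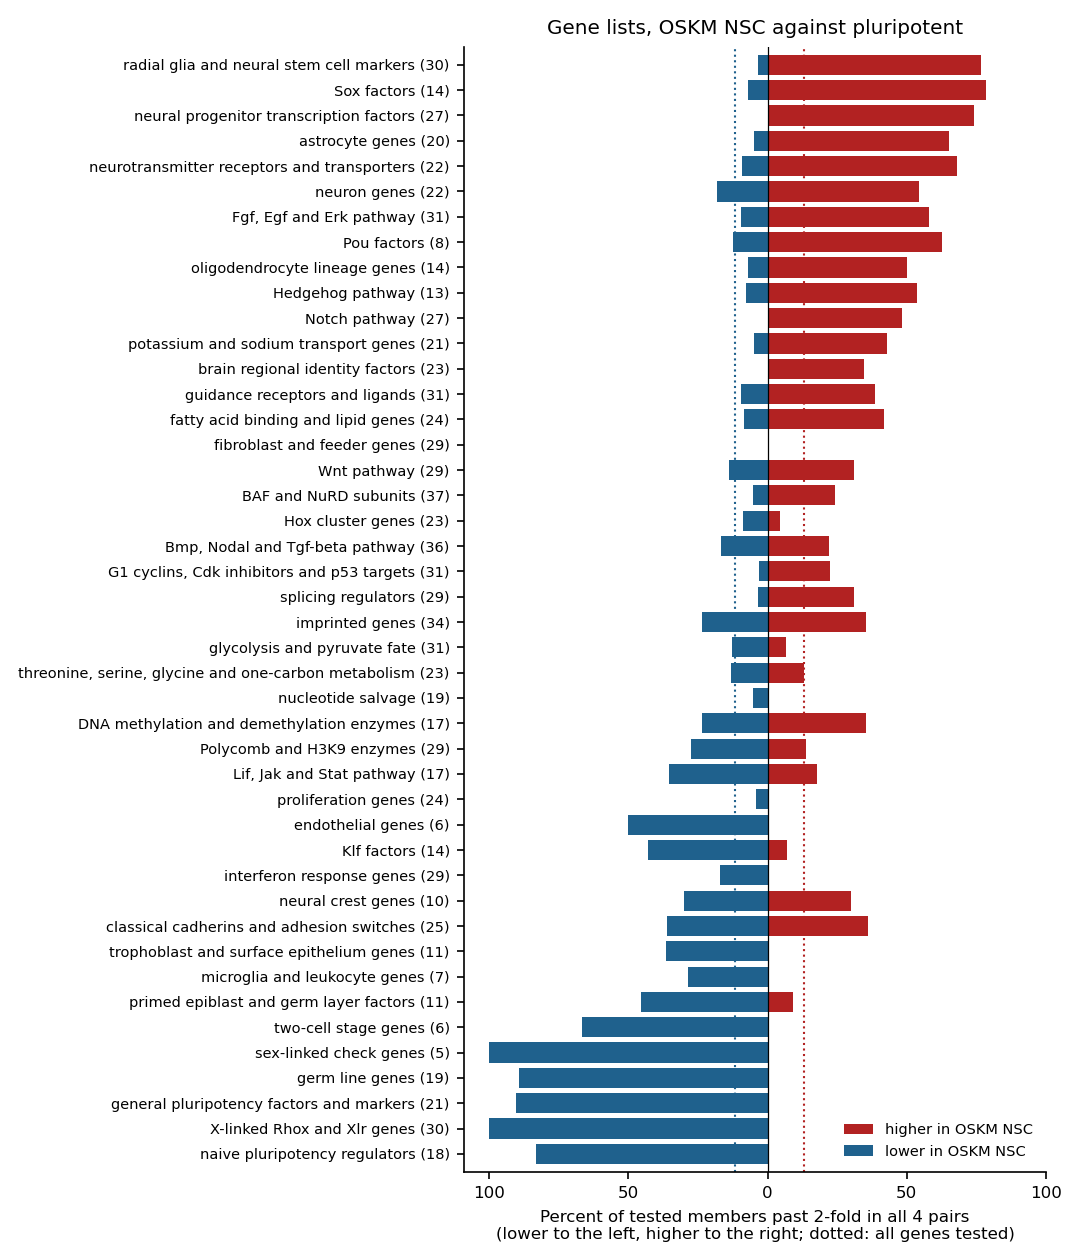
Percent of the tested members of each gene list that passed 2-fold in all 4 pairs, lower in OSKM NSC to the left and higher to the right, with the number tested in parentheses; dotted lines mark 11.6% lower and 13.2% higher over all genes. Pluripotency, germ line and Rhox lists lie to the left, and Sox, radial glia and neural progenitor lists to the right.

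Regional identity was less uniform. Of 23 brain regional factors tested, 8 were higher and none lower, with a median of 1.33. Dbx2, a factor of the intermediate neural tube, had 8.55 and 18.9 RPKM in the NSC, against 0.797 and 0.578 RPKM in the pluripotent lines, and Pax3, a dorsal neural tube factor, had 5.17 and 7.204 RPKM in NSC, against 0.236 and 0.117 RPKM in iPSC and ESC. Irx5, a homeobox factor of several neural regions, had 6.37 and 6.03 RPKM in the NSC, compared with 0.1796 and 0.478 RPKM in the pluripotent lines. Of 23 Hox genes tested 1 was higher and 2 lower. Hoxa2, a hindbrain member, had 23.4 and 12.3 RPKM in the NSC, against 0.403 and 0.585 RPKM in the pluripotent lines, and Hoxb2, its paralog, had 19.6 and 0.947 RPKM in NSC, against 0.106 and 0.836 RPKM in iPSC and ESC and did not pass. The lower ones were Hoxc12 and Hoxc13, at the 5′ end of their cluster, with Hoxc13 at no read in the NSC, against 13.2 and 12.2 RPKM in the pluripotent lines. The summed level of the 39 Hox genes was 158 and 21.4 RPKM in the NSC, against 47.8 and 46.5 RPKM in the pluripotent lines, and it was 109 RPKM in brain NSC. The summed Hox level was thus above the pluripotent lines in the Tomato-positive library and below them in the Tomato-negative one. Without the Tomato-negative library 14 Hox genes were higher at 2-fold, and without the Tomato-positive one 4 were lower.

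Within the Pou and Sox families, the members with high levels differed in part between the sides, and more members were higher in the NSC than lower. Of 8 Pou factors tested, Pou5f1 was lower and 5 were higher. Pou3f3, a Pou factor of neural progenitors also called Brn1, had 50.5 and 57.9 RPKM in the NSC, compared with 0.349 and 0.534 RPKM in the pluripotent lines. Pou3f2 (Brn2), which drives neuronal fate, had 8.74 and 10.7 RPKM in the NSC, against 0.0632 and 0.0778 RPKM in the pluripotent lines, and Pou3f4 (Brn4) had 28.7 and 33.4 RPKM in NSC, against 0.131 and 0 RPKM in iPSC and ESC. Pou3f1 and Pou6f1 passed as deposited and did not pass under median-of-ratios scaling. Of 14 Sox factors 11 were higher and 1, Sox15, was lower, with a median of 3.33. Sox8 had 64.7 and 82.6 RPKM in the NSC, compared with 0.184 and 0.0381 RPKM in the pluripotent lines, Sox9, a factor of gliogenesis, had 27.4 and 34.1 RPKM in the NSC, against 0.238 and 0.153 RPKM in the pluripotent lines, and Sox3, a relative of Sox2 in neural progenitors, had 15.6 and 43.1 RPKM in NSC, against 0.569 and 0.343 RPKM in iPSC and ESC. Sox15, which is expressed in mouse pluripotent cells, had 0.795 and 0.415 RPKM in the NSC, compared with 45.1 and 29.999 RPKM in the pluripotent lines. Sox2 and Sox13 did not pass, and 4 further Sox genes were under 2 RPKM in all 4 libraries.

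Klf factors ran the other way, with 6 lower and 1 higher of 14 tested and a median of −0.92. Klf2 had 0.598 and 0.657 RPKM in the NSC, against 109 and 51.6 RPKM in the pluripotent lines, Klf4 had 3.52 and 4.97 RPKM in NSC, against 143 and 75.2 RPKM in iPSC and ESC and Klf5 had 3.22 and 0.875 RPKM in the NSC, compared with 100.4 and 56.7 RPKM in the pluripotent lines; these 3 support naive self-renewal. Klf8, Klf9 and Klf11 were also lower, with Klf9, a hormone-responsive factor, at 8.08 and 14.5 RPKM in the NSC, against 50.8 and 62.4 RPKM in the pluripotent lines. Klf7, a factor of neuronal growth, was higher, with 9.71 and 27.6 RPKM in NSC, against 1.73 and 4.23 RPKM in iPSC and ESC, but did not pass under median-of-ratios scaling, with exons shared with another gene left out, or by its highest exon. Klf3 and Klf10 were within 2-fold in at least 1 pair, with Klf10, a Tgf-beta response gene, at 52.5 and 93.2 RPKM in the NSC, compared with 60.6 and 67.9 RPKM in the pluripotent lines. In the Myc family Myc was higher, with 90.5 and 68.5 RPKM in the NSC, against 11.3 and 1.22 RPKM in the pluripotent lines, and Mycn was lower, with 2.82 and 0.952 RPKM in NSC, against 51.9 and 22.5 RPKM in iPSC and ESC. Both genes passed 2-fold in all 4 pairs, so the gap between the sides is given by the rule.

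**Figure D4:**
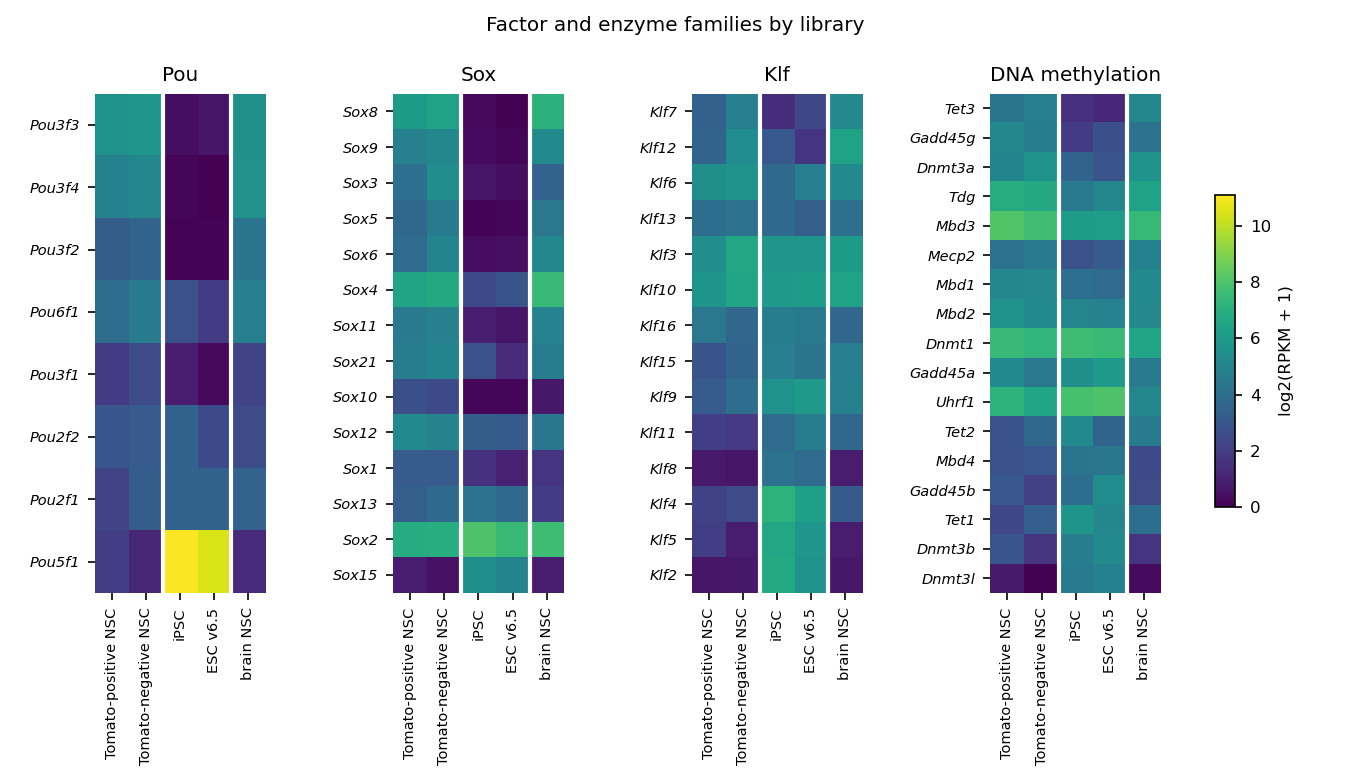
Level as log2(RPKM + 1) of the tested Pou, Sox and Klf factors and of DNA methylation enzymes in OSKM NSC, in iPSC and ESC, and in brain NSC, with white lines between the 3 kinds of library. Pou5f1, Sox15, Klf2, Klf4 and Klf5 are bright in the pluripotent columns, whereas Pou3f3, Sox8 and Sox9 are bright in the NSC columns.

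Cadherins also differed by member between the sides. Cdh1, the epithelial cadherin of pluripotent colonies, had 2.19 and 0.791 RPKM in the NSC, compared with 156 and 391 RPKM in the pluripotent lines, and Cdh2, the neural cadherin, had 141 and 105 RPKM in the NSC, against 4.597 and 2.76 RPKM in the pluripotent lines. The 95% exact interval of the read ratio for Tomato-positive NSC over iPSC was 0.0122 to 0.0163 for Cdh1 and 30.2 to 33.8 for Cdh2. Of 25 adhesion genes 9 were higher and 9 lower. Cdh20 and Cdh13, cadherins of the nervous system, had 31.9 and 96.4 RPKM in NSC, against 0.215 and 0.602 RPKM in iPSC and ESC for Cdh20 and 42.04 and 98.98 RPKM in the NSC, compared with 0.0957 and 1.21 RPKM in the pluripotent lines for Cdh13. Cldn4, a tight junction claudin, had 0.669 and 0.07897 RPKM in the NSC, against 50.1 and 140.1 RPKM in the pluripotent lines. Cdh11, a mesenchymal cadherin, had 74.6 and 10.99 RPKM in NSC, against 1.52 and 22.8 RPKM in iPSC and ESC and was high in Tomato-positive NSC and ESC, the libraries with the most fibroblast transcripts of their side.

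Enzymes of DNA methylation changed by member rather than as a group, with 6 higher and 4 lower of 17 tested and a median of −0.21. Dnmt3a, the de novo methyltransferase of somatic cells, had 31.4 and 49.8 RPKM in the NSC, compared with 10.7 and 6.67 RPKM in the pluripotent lines, whereas Dnmt3l, the cofactor of de novo methylation in germ and pluripotent cells, had 0.732 and 0.0232 RPKM in the NSC, against 23.05 and 28.3 RPKM in the pluripotent lines. Dnmt1, the maintenance enzyme, was close to even, with 175 and 159 RPKM in NSC, against 202 and 185 RPKM in iPSC and ESC. Among the dioxygenases that oxidize methylcytosine, Tet1 was lower, with 4.14 and 9.06 RPKM in the NSC, compared with 52.97 and 34.5 RPKM in the pluripotent lines, and Tet3 was higher, with 18.1 and 26.8 RPKM in the NSC, against 1.88 and 1.39 RPKM in the pluripotent lines. Tet2 did not pass, with 6.13 and 12.3 RPKM in NSC, against 38.6 and 10.96 RPKM in iPSC and ESC. Tdg, the glycosylase that removes oxidized bases, was higher, with 119 and 103 RPKM in the NSC, compared with 21.6 and 33.001 RPKM in the pluripotent lines. Mbd3, a methyl-binding-domain subunit of the NuRD repressor, was higher, with 271 and 206 RPKM in the NSC, against 68.4 and 73.6 RPKM in the pluripotent lines. The label of the iPSC gives Mbd3 flox/-, and its part in the Mbd3 level was not tested. Mbd1 passed as deposited and passed under neither of the 2 other scalings, and Mbd4 passed under median-of-ratios scaling but not under scaling to equal totals.

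Polycomb and H3K9 enzymes gave 4 higher and 8 lower of 29 tested, with a median of −0.31. The lower ones included accessory subunits of PRC2, the complex that methylates histone H3 at lysine K27. Jarid2 had 19.7 and 21.9 RPKM in NSC, against 122 and 67.9 RPKM in iPSC and ESC, Mtf2 had 37.7 and 32.997 RPKM in the NSC, compared with 226 and 279 RPKM in the pluripotent lines and Epop had 6.11 and 2.55 RPKM in the NSC, against 106 and 38.6 RPKM in the pluripotent lines. The core subunits Eed and Suz12, chosen after their values were seen, also passed, with Suz12 at 67.7 and 65.2 RPKM in NSC, against 143 and 209.9 RPKM in iPSC and ESC. The catalytic subunit Ezh2 did not pass, with 179 and 157 RPKM in the NSC, compared with 153 and 245 RPKM in the pluripotent lines. Cbx7, the PRC1 reader of pluripotent cells, was lower, with 2.46 and 5.003 RPKM in the NSC, against 86.1 and 42.8 RPKM in the pluripotent lines. Among 37 subunits of the BAF and NuRD remodelers 9 were higher and 2 lower, with a median of 0.51. Smarca2, the alternative BAF ATPase, had 43.5 and 47.1 RPKM in NSC, against 1.804 and 10.5 RPKM in iPSC and ESC, Smarcc2, a BAF scaffold, had 118 and 125 RPKM in the NSC, compared with 31.99 and 23.7 RPKM in the pluripotent lines, and Dpf3, a neural subunit, had 6.04 and 18.2 RPKM in the NSC, against 0.929 and 0.415 RPKM in the pluripotent lines. Smarcd2 and Mta3 were lower, with Mta3 at 28.2 and 20.8 RPKM in NSC, against 107 and 82.5 RPKM in iPSC and ESC. Most members of both lists were within 2-fold in at least 1 pair.

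Signalling genes were examined by pathway. In the Fgf, Egf and Erk list 18 of 31 were higher and 3 lower, with a median of 1.84. Fgfr3, a receptor of ventricular zone progenitors, had 54.6 and 49.6 RPKM in the NSC, compared with 0.326 and 0.336 RPKM in the pluripotent lines, and the ligand Fgf1 had 18.6 and 19.01 RPKM in the NSC, against 0.972 and 0.266 RPKM in the pluripotent lines. The feedback inhibitors Spry1 and Dusp6, which are induced by Erk, had 80.9 and 95.8 RPKM in NSC, against 4.88 and 6.896 RPKM in iPSC and ESC for Spry1 and 200.4 and 259 RPKM in the NSC, compared with 23.1 and 6.28 RPKM in the pluripotent lines for Dusp6. Egr1, an immediate early target, had 25.1 and 64.9 RPKM in the NSC, against 0.725 and 0.551 RPKM in the pluripotent lines. In the Notch list 13 of 27 were higher and none lower, with a median of 1.36. Lfng, the fringe enzyme that modifies Notch receptors, had 164 and 199.9 RPKM in NSC, against 0.682 and 0.8799 RPKM in iPSC and ESC. The ligand Dll1 had 17.8 and 42.7 RPKM in the NSC, compared with 0.3804 and 2.22 RPKM in the pluripotent lines, and the targets Hes5 and Hey1 had 6.16 and 22.5 RPKM in the NSC, against 0.0542 and 0 RPKM in the pluripotent lines for Hes5 and 39.04 and 36.4 RPKM in NSC, against 0.908 and 2.94 RPKM in iPSC and ESC for Hey1.

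The Hedgehog list gave 7 higher and 1 lower of 13 tested, with a median of 1.60. The receptor Ptch1 had 54.3 and 51.4 RPKM in the NSC, compared with 11.6 and 16.5 RPKM in the pluripotent lines, and the transducer Smo had 92.2 and 97.4 RPKM in the NSC, against 15.6 and 19.2 RPKM in the pluripotent lines. Gli3 passed as deposited, with 7.498 and 13.9 RPKM in NSC, against 2.63 and 2.92 RPKM in iPSC and ESC, but not under median-of-ratios scaling. The target Gli1 did not pass, with 8.05 and 0.512 RPKM in the NSC, compared with 7.78 and 4.66 RPKM in the pluripotent lines. Wnt genes gave 9 higher and 4 lower of 29, with a median of 0.53. Over all genes tested 13.2% were higher and 11.6% lower. The ligand Wnt7a had 21.5 and 25.5 RPKM in the NSC, against 0.125 and 0.0154 RPKM in the pluripotent lines and the receptor Fzd3 had 16.7 and 43.7 RPKM in NSC, against 0.671 and 0.848 RPKM in iPSC and ESC, whereas the inhibitor Notum had 0.563 and 0.281 RPKM in the NSC, compared with 72.4 and 7.73 RPKM in the pluripotent lines. The Bmp, Nodal and Tgf-beta list gave 8 higher and 6 lower of 36, with a median of 0.45. Bmpr1b, a Bmp receptor, had 6.52 and 21.7 RPKM in the NSC, against 0.0736 and 0.159 RPKM in the pluripotent lines, and Gdf3, a ligand of pluripotent cells, had 0.0248 and 0 RPKM in NSC, against 80.9 and 60.1 RPKM in iPSC and ESC. In the Lif, Jak and Stat list 3 of 17 were higher and 6 lower, with a median of −0.62. Socs3, the feedback inhibitor induced by Stat3, had 9.198 and 3.43 RPKM in the NSC, compared with 72.95 and 81.8 RPKM in the pluripotent lines, and Pim1, a kinase induced by Stat signals, had 11.3 and 3.83 RPKM in the NSC, against 40.9 and 138 RPKM in the pluripotent lines. Cntfr, the receptor subunit for ciliary neurotrophic factor, was higher, with 24.2 and 38.2 RPKM in NSC, against 4.11 and 1.16 RPKM in iPSC and ESC.

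Of 31 guidance genes 12 were higher and 3 lower, with a median of 1.25, and semaphorin and ephrin genes led. Sema6a had 37.9 and 59.96 RPKM in the NSC, compared with 0.359 and 0.551 RPKM in the pluripotent lines, and Epha5, an ephrin receptor of axons, had 8.02 and 19.2 RPKM in the NSC, against 0 and 0.00868 RPKM in the pluripotent lines. Splicing regulators gave 9 higher and 1 lower of 29, with a median of 0.21. Celf2 had 24.03 and 59.5 RPKM in NSC, against 0.5495 and 3.096 RPKM in iPSC and ESC, and Ptbp2, the neural relative of Ptbp1, had 92.9 and 93.9 RPKM in the NSC, compared with 23.6 and 24.5 RPKM in the pluripotent lines. Ptbp1 did not pass, with 317 and 172 RPKM in the NSC, against 383 and 279.8 RPKM in the pluripotent lines. Igf2bp1, which binds messenger RNAs in embryonic cells, was lower, with 15.1 and 3.42 RPKM in NSC, against 82.6 and 62.01 RPKM in iPSC and ESC.

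Proliferation genes separated the sides little. Of 24 tested none was higher and 1 was lower, with a median of −0.66. Top2a, a topoisomerase of dividing cells, had 452 and 359 RPKM in the NSC, compared with 394 and 534 RPKM in the pluripotent lines, Rrm2, a subunit of ribonucleotide reductase, had 432 and 297 RPKM in the NSC, against 296 and 587 RPKM in the pluripotent lines, and Cdt1, which licenses replication origins, was the lower gene, with 43.4 and 23.2 RPKM in NSC, against 140 and 92.7 RPKM in iPSC and ESC. Without the Tomato-positive library 9 of the 24 were lower. Of 31 G1 cyclins, Cdk inhibitors and p53 targets 7 were higher and 1 lower, with a median of 0.38. The D cyclins Ccnd1 and Ccnd2, through which growth factors start the cycle, had 334 and 876 RPKM in the NSC, compared with 48.6 and 58.3 RPKM in the pluripotent lines for Ccnd1 and 339 and 716 RPKM in the NSC, against 4.38 and 16.4 RPKM in the pluripotent lines for Ccnd2. The Cdk4 and Cdk6 inhibitor gene Cdkn2c had 25.9 and 36.5 RPKM in NSC, against 1.104 and 2.22 RPKM in iPSC and ESC. Cdk4 itself did not pass, with 1215 and 787 RPKM in the NSC, compared with 934 and 565 RPKM in the pluripotent lines.

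Metabolic genes were counted by pathway, beside 13.2% higher and 11.6% lower over all genes tested. Of 23 genes of threonine, serine, glycine and one-carbon metabolism 3 were higher and 3 lower, which is close to those shares. Tdh, given above, was the lowest, and Amt, of the glycine cleavage system, had 67.7 and 62.4 RPKM in the NSC, against 185 and 214 RPKM in the pluripotent lines. Mthfd2l, a mitochondrial folate enzyme, had 26.3 and 24.01 RPKM in NSC, against 4.11 and 1.27 RPKM in iPSC and ESC. Phgdh and Mthfd1 passed as deposited but under neither other scaling. In glycolysis 2 were higher and 4 lower of 31. Slc2a3, the glucose transporter Glut3, had 20.1 and 20.2 RPKM in the NSC, compared with 569 and 697 RPKM in the pluripotent lines, the phosphofructokinase Pfkp had 28.8 and 23.4 RPKM in the NSC, against 305 and 245 RPKM in the pluripotent lines and the hexokinase Hk2 had 25.001 and 21.9 RPKM in NSC, against 104 and 104 RPKM in iPSC and ESC. Aldoc, the brain aldolase, had 267 and 282 RPKM in the NSC, compared with 6.68 and 10.7 RPKM in the pluripotent lines, whereas Aldoa did not pass, with 1653 and 1054 RPKM in the NSC, against 1385 and 1665 RPKM in the pluripotent lines. Of 19 nucleotide salvage genes 1 was lower, Upp1, which splits uridine, with 23.4 and 45.1 RPKM in NSC, against 454 and 534 RPKM in iPSC and ESC. Hprt, which salvages purines, had 196 and 112 RPKM in the NSC, compared with 0.669 and 549 RPKM in the pluripotent lines, so it was nearly absent from the iPSC library alone. Lipid genes gave 10 higher and 2 lower of 24, with a median of 1.24. The desaturase Scd2 had 1781 and 2540.3 RPKM in the NSC, against 197 and 189 RPKM in the pluripotent lines and Hmgcs1, of cholesterol synthesis, had 897 and 874 RPKM in NSC, against 156 and 152 RPKM in iPSC and ESC. The muscle and heart carrier Fabp3 was lower, with 2.81 and 2.37 RPKM in the NSC, compared with 83.9 and 470.2 RPKM in the pluripotent lines.

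Imprinted genes were expressed at other levels on the 2 sides, with 12 higher and 8 lower of 34 tested and a median of 0.21. Mest, a paternally expressed hydrolase gene, had 1553 and 1522 RPKM in the NSC, against 78.5 and 18.6 RPKM in the pluripotent lines, and Nnat, neuronatin, had 680.1 and 1151 RPKM in NSC, against 15.5 and 1.12 RPKM in iPSC and ESC. Peg12 had 73.8 and 111 RPKM in the NSC, compared with 0.914 and 2.06 RPKM in the pluripotent lines and Gnas, a G protein gene, had 861 and 812 RPKM in the NSC, against 85.1 and 111 RPKM in the pluripotent lines. Grb10, an adaptor that restrains insulin signals, had 0.908 and 0.422 RPKM in NSC, against 30.7 and 108 RPKM in iPSC and ESC. H19, a maternally expressed RNA, did not pass, with 471 and 76.5 RPKM in the NSC, compared with 107 and 249.9 RPKM in the pluripotent lines, and was highest in Tomato-positive NSC. Interferon response genes gave 5 lower and none higher of 29, with a median of −1.01. Over all genes tested 11.6% were lower and 13.2% higher. Oas1a, an antiviral nucleotide synthetase, had 0.279 and 0.0632 RPKM in the NSC, against 40.7 and 44.6 RPKM in the pluripotent lines, and Ifitm3, an antiviral membrane protein also used as a germ cell marker, had 255 and 28.2 RPKM in NSC, against 622 and 1225 RPKM in iPSC and ESC. Without iPSC 17 of the 29 were lower, and Bst2, the antiviral tetherin, had 41.5 and 26.5 RPKM in the NSC, compared with 36.5 and 269 RPKM in the pluripotent lines.

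Markers of other cell types bear on what the cultures held. Of 7 microglia and leukocyte genes tested 2 were lower, with Laptm5, a lysosomal protein of blood cells, at 0.684 and 0.0967 RPKM in the NSC, against 293 and 142 RPKM in the pluripotent lines, whereas Lyz2, a lysozyme of macrophages, had 9.06 and 0.1501 RPKM in NSC, against 0.0526 and 93.5 RPKM in iPSC and ESC. Of 6 endothelial genes 3 were lower, among them Pecam1, an adhesion protein also present on pluripotent cells, at 0.157 and 0.148 RPKM in the NSC, compared with 93.5 and 138 RPKM in the pluripotent lines. Emcn, an endothelial sialomucin, had 12.99 and 0.626 RPKM in the NSC, against 0 and 0 RPKM in the pluripotent lines. Of 11 trophoblast and surface epithelium genes 4 were lower, with Tfap2c, also a germ cell factor, at 0.961 and 0.0662 RPKM in NSC, against 29.2 and 47.9 RPKM in iPSC and ESC. Krt5, a basal keratin, had 75.8 and 0 RPKM in the NSC, compared with 0.441 and 0.144 RPKM in the pluripotent lines, and Krt8, a simple epithelial keratin, had 57.8 and 3.05 RPKM in the NSC, against 11.7 and 2.62 RPKM in the pluripotent lines. Emcn, Krt5 and Krt8 were each highest in Tomato-positive NSC among the 4 libraries. The neural crest list, 10 genes tested, had 3 higher and 3 lower, with Ets1 at 28.97 and 27.6 RPKM in NSC, against 1.14 and 2.19 RPKM in iPSC and ESC and Mitf at 3.1999 and 3.91 RPKM in the NSC, compared with 14.3 and 19.3 RPKM in the pluripotent lines.

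The 2 NSC libraries also differed from each other among the called genes. Of the 832 genes called higher, 611 were within 2-fold of each other between the NSC, 26 were at least 4-fold lower in the labelled NSC, and 4 were at least 4-fold higher there. Of the 998 called lower, 41 were at least 4-fold higher in the labelled NSC and 4 at least 4-fold lower. Over all 15323 genes compared between the NSC libraries, 2.77% were at least 4-fold higher in the labelled NSC and 0.881% lower. The share of all genes within 2-fold was not computed. The calls rest on the same NSC values, so these counts do not show a trait of the called genes. Of the same 998 genes, 305 stood at 1 RPKM or more in Tomato-positive NSC and 238 in Tomato-negative NSC. The astrocyte list summed to 1764 and 4108 RPKM in the NSC, against 1277 and 1686 RPKM in the pluripotent lines, and to 9453 RPKM in brain NSC. The proliferation list summed to 4255 and 2712 RPKM in the NSC, against 4730 and 5519 RPKM in the pluripotent lines, and to 1306 RPKM in brain NSC. In both lists Tomato-negative NSC lay between Tomato-positive NSC and brain NSC.

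Exon use was compared as the level of each exon relative to its gene, again with 1 RPKM added, in genes that reached 10 RPKM in all 4 libraries. Of 96800 exons compared, which lie in 8106 genes, 67 in 28 genes (0.0692%) had a share at least 4-fold higher in the NSC in all 4 pairs, and 69 in 29 genes (0.0713%) had a lower one. Exons that begin a transcript were 18 of the 67 (26.9%) and 25 of the 69 (36.2%), against 13.4% of all exons compared. Of the 69, 26 had no read in either NSC library, and 21 of these had none in brain NSC. Overlapping exon records of 1 gene share reads and are not independent. A share also moves with the gene level it is relative to. The Copg2 exon at chr6:30825627-30825694, called lower, had 98.3 and 106.1 RPKM in the NSC, against 91.8 and 223.1 RPKM in the pluripotent lines. Copg2 itself had 366.9 and 370.1 RPKM, against 68.1 and 127.4 RPKM. The Dhx16 exon at chr17:35881278-35881522, called higher, had 40.6 and 33.1 RPKM, against 33.1 and 25.4 RPKM. Dhx16 itself had 56.3 and 46.9 RPKM, against 305.5 and 294.8 RPKM. Such exons were not counted apart. For very short exons the RPKM is inflated by reads that lie mostly outside them.

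The exons with a lower share included first exons used in the pluripotent lines. In Ash2l, a subunit of H3K4 methyltransferases, the exon at chr8:25847579-25847694 had no read in the NSC, against 312.9 and 622.6 RPKM in the pluripotent lines, while the gene as a whole had 110.6 and 81.8 RPKM in the NSC, against 376.8 and 619.98 RPKM. In Usp7, a deubiquitinase of the p53 and Polycomb pathways, the exon at chr16:8792236-8792308 had no read in the NSC, against 89.3 and 111.6 RPKM in the pluripotent lines. In Jade1, a subunit of histone acetyltransferases, the exon at chr3:41555731-41555819 had 0 and 0.277 RPKM in the NSC, against 140.5 and 142.7 RPKM in the pluripotent lines. None of the 3 exons had a read in brain NSC. Zmynd8, a reader of acetylated chromatin, had exons in both directions. Its first exon at chr2:165896853-165896950 had no read in the NSC, against 18.3 and 30.1 RPKM in the pluripotent lines, and its exon at chr2:165794395-165794634 had 55.0 and 65.1 RPKM in the NSC, against 10.3 and 9.55 RPKM. The levels of the gene as a whole were 32.9 and 38.2 RPKM in the NSC, against 43.2 and 49.5 RPKM in the pluripotent lines.

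**Figure D5:**
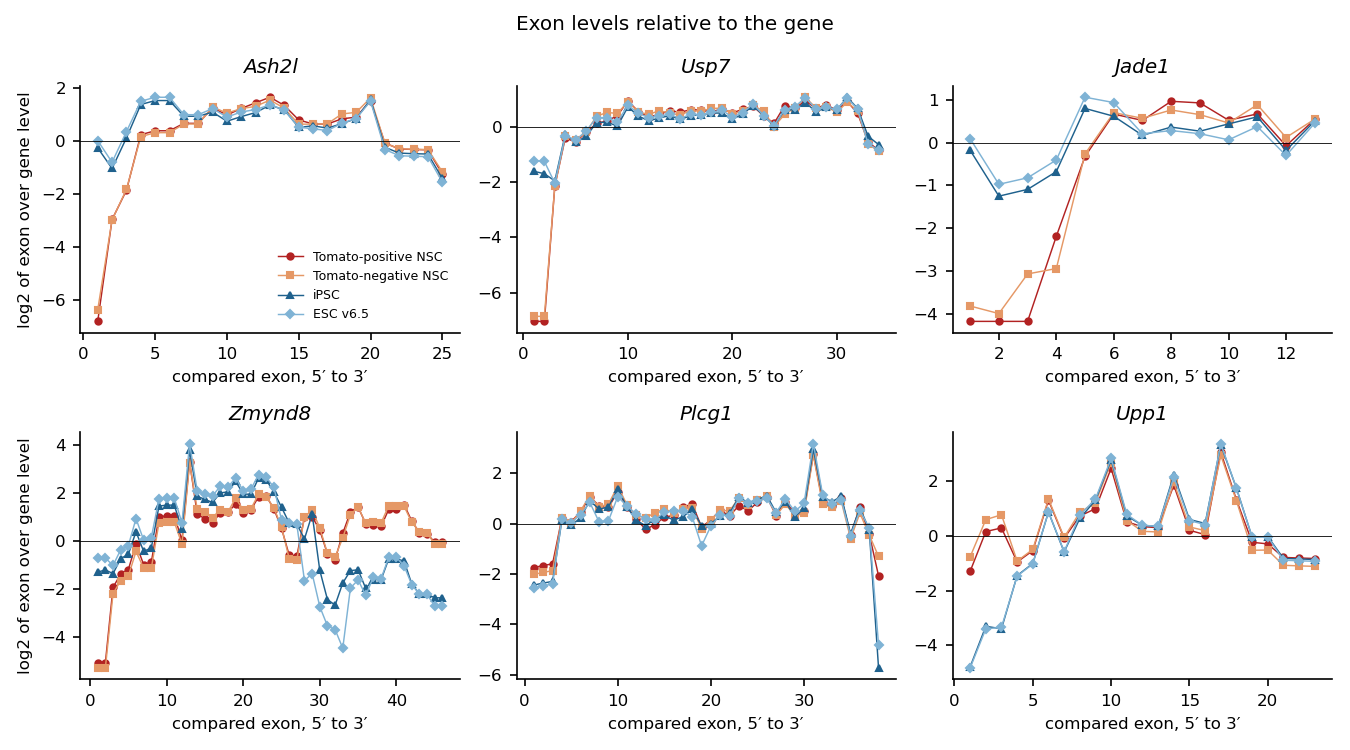
Level of each compared exon relative to its gene (log2, 1 RPKM added), ordered by position along the strand of the gene from 5′ to 3′, for 6 genes and 4 libraries. In Ash2l, Usp7 and Jade1 the NSC lines drop at the exons plotted first, in Zmynd8 the NSC lie lower at the exons plotted first and higher towards the 3′ end, in Plcg1 they lie higher at the exon plotted last, which ends no annotated transcript, and in Upp1 at the first 3.

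Internal coding exons differed too, and 3 are printed because their whole length was near absent on 1 side. Each is written 5′ to 3′ on the plus strand of GRCm38, and each length is a multiple of 3.
Scml2, chrX:161153833-161153910, plus strand: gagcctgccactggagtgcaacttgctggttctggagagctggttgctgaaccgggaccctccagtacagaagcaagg
Itsn1, chr16:91896327-91896425, plus strand: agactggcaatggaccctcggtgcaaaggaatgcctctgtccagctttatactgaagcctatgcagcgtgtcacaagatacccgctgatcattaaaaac
Plcg1, chr2:160774528-160774587, plus strand: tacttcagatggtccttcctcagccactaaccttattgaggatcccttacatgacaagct
The Scml2 exon, of a Polycomb protein of germ cells, is 78 bases long and had no read in the NSC, against 289.6 and 221.4 RPKM in the pluripotent lines. It was not absent alone. The Scml2 exons at chrX:161117193-161117324 and chrX:161124268-161124429, which each begin a transcript, also had no read in the NSC. Nor did those at chrX:161121024-161121101 and chrX:161144763-161144840, and all of these lie 5′ of the printed exon. Other exons of Scml2 were read in the NSC, such as chrX:161171490-161171535 at 5.72 and 8.28 RPKM. The gene had 13.3 and 15.5 RPKM in the NSC, against 161.5 and 116.3 RPKM in the pluripotent lines. The exons of Itsn1 and Plcg1 were chosen after their values were seen. The Itsn1 exon, of an endocytic scaffold with long forms in neurons, is 99 bases long and had 11.2 and 10.8 RPKM in the NSC, against 0.174 and 0 RPKM in the pluripotent lines. The gene itself was close to even, at 16.97 RPKM in both NSC, against 11.69 and 11.99 RPKM in the pluripotent lines. The Plcg1 exon, of a phospholipase, is 60 bases long and had 15.8 and 40.1 RPKM in the NSC, against 0.287 and 0.813 RPKM in the pluripotent lines. In brain NSC the Itsn1 and Plcg1 exons stood at 8.60 and 51.2 RPKM.

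Among the exons with a higher share, the largest difference by the smallest of the 4 pairs was at a first exon of Upp1, chr11:9118245-9118284, with 28.9 and 78.0 RPKM in the NSC, against 42.2 and 51.8 RPKM in the pluripotent lines. The level of that exon overlapped between the sides while the gene level was over 10-fold lower in the NSC. Rtkn had 62.6 and 68.4 RPKM in the NSC, against 1.51 and 2.73 RPKM in the pluripotent lines, at its exon chr6:83137961-83138246. Of genes known for exon choice in development, Pkm had 12 exons and Ptbp2 14 exons compared and none was called, whereas Dnmt3a, Dnmt3b, Foxp1 and Fgfr2 were under 10 RPKM in a library and were not compared.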

How the data were processed

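Total RNA was prepared with the TruSeq RNA kit v2, which does not mark strand, per the labels, and the authors deposited 1 table of RPKM values per exon. Per the submitters' processing notes, CASAVA 1.8.2, Bowtie, TopHat2 2.0.10 and bedtools were used on mm10; the exon annotation release is not given in the sources used here. Exon identifiers were matched to GENCODE release 21 of mouse, which placed 270168 of 279252 exons (96.7%) in 29686 genes, and exon RPKM was averaged per gene by exon length. The 9084 unmatched exons were left out. Without strand, overlapping and antisense genes cannot be told apart, and near-identical copies can share reads.

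Depth was read from the whole-read steps of the RPKM values, with 96.3% to 96.5% of values whole within 0.01 read in the 7 libraries. Intervals are 95% exact (Clopper-Pearson) and, like the floor of 3 reads behind a 0, cover counting error only. Each group has 1 library, so no test was made. The call was tested on simulated data for 29686 genes, which held counting noise only and no spread between libraries of a side. It recovered 0% of genes changed 2-fold, 2.08% at 4-fold, and 100% at 8-fold and at 16-fold, and called no unchanged gene. This gives no rate of false calls for the real libraries, which differ within a side. Genes near the floor of 2 RPKM were not among the genes changed.

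The members and the 44 gene lists (1004 genes, of which 5 were not matched by name) were chosen with earlier results of these data known. Genes named are the 15 highest and 15 lowest protein-coding genes by their smallest pair, up to 6 members of each list past 2-fold and up to 3 with the highest level that did not pass, all members of the Pou, Sox, Klf, DNA methylation and Rhox and Xlr lists, 7 set genes, and the 8 exons with the largest rise and fall in share. Promoters were matched for under 80% of the called genes, because the RefSeq table is not complete, so a check of base composition or motifs over the called genes is void. Alternatives covered scaling, pseudocount, floor, the level of a gene, shared exons and each library left out. A few genes picked by this rule are left out of the text. Python 3.11.15, numpy 2.4.6, pandas 2.3.3 and scipy 1.17.1 were used.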

Additional observations from a re-analysis of the deposited data

How the results depend on the processing

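No paired analysis was possible because each group has 1 library. Since a call needs all 4 pairs, leaving a library out can only add calls at fixed levels: the 832 genes higher in the NSC became 1025 to 1310, and the 998 lower became 1081 to 1622, the most without iPSC. With 4 RPKM added in place of 1 RPKM, 392 genes were higher and 528 lower. Under the other scalings, 894 genes were higher and 947 lower with equal totals, and 725 higher and 1087 lower by median of ratios. These scalings moved the median of all genes by 0.19 and −0.13. Higher genes made up 45.5% of calls as deposited and 38.7% to 51.7% over all settings. Between the NSC libraries 560 genes passed 4-fold in either direction, which became 880 with 0.25 RPKM added, 225 with 4 RPKM added and 1253 by the highest exon of each gene. Between iPSC and ESC 894 genes did, which became 1358, 430 and 1842. The 67 exons with a higher share became 37 with 4 RPKM added, and 82 to 943 with a library left out, the most without iPSC. The 69 exons with a lower share became 33 with 4 RPKM added, 35 with a floor of 20 RPKM, and 109 to 149 with a library left out. Of the log2 ratios of named genes recomputed, 4512 kept their side of the threshold, 123 newly passed, 44 no longer passed and none reversed. The cause of these shifts was not tested. Of the counts of list members recomputed, 945 stayed within 1.5 times and 111 moved further. Single libraries set some lists: 16 of 29 fibroblast genes were higher without ESC and 7 lower without iPSC, and 13 of 23 regional factors were higher without Tomato-negative NSC, as were 15 of 36 Bmp, Nodal and Tgf-beta genes and 5 of 11 trophoblast genes.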
